A study of Mus musculus with 48 samples.

Results

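The inferior olive of *Atxn1* 154Q/2Q knock-in (KI) mice was compared with that of wild-type (WT) controls at 12 weeks of age, in 6 of the 48 libraries of the series. The 3 KI libraries came from male mice on a pure C57BL/6J background that carry an expanded CAG repeat, coding for 154 glutamines, in 1 copy of their own *Atxn1* gene, under that gene's own regulation, beside a normal copy with 2 glutamines. The 3 WT libraries came from C57BL/6J males, which the study describes as littermates, and neither group received a drug. No source used here says that RNA of several mice was pooled. Levels are in FPKM, the fragments of a transcript scaled to its length and to the library's total. Genes were described where they had a symbol and averaged 0.5 FPKM or more in each genotype, which kept 13832 of the 23042 symbols listed. Poly-A RNA was sequenced from tissue cut out of the brainstem with the decussation of the pyramids and the pons as landmarks, so each library is a mixture of cell types. For comparison the same tissue at 5 weeks, the inferior olive of ATXN1-82Q transgenic (Tg) mice at 12 weeks and the KI cerebellum at 12 weeks were used, each with 3 mutant and 3 WT libraries. The Tg mice, on an FVB/NJ background, express human ATXN1 with 82 glutamines from a promoter that acts in Purkinje cells of the cerebellum, and not in the olive.

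The inferior olive is a group of nuclei in the ventral medulla. Its neurons send climbing fibers to the Purkinje cells of the cerebellum, are coupled to each other by gap junctions and oscillate with the help of T-type calcium channels. Spinocerebellar ataxia type 1 arises from an expanded glutamine tract in ATXN1, a nuclear protein that works with the transcriptional repressor Capicua (Cic), and the olive and the Purkinje cells are both affected. Type I interferon, which cells make on sensing viral nucleic acid, acts through receptor kinases and the factors Stat2 and Irf9 on a shared set of antiviral genes.

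*Atxn1* itself had 6.39, 6.35 and 5.81 FPKM in the WT libraries and 7.31, 6.90 and 8.01 FPKM in the KI libraries (deposited locus on chromosome 13, 45507428 to 45967010, mm10). All KI libraries lay above all WT libraries, with a log2 fold change of 0.25 ± 0.0689 (standard error, SE), and the gene was not called (adjusted p = 0.149, limma over all genes tested). These values count transcripts of both alleles together, so they do not check which library carries the expanded repeat. The number of genes at 1 FPKM or above was 12833 to 12967 by library. The number of fragments in each library is unknown, and from the lowest FPKM values the depths were estimated at 0.864 to 1.39 times that of WT replicate 1. As to the tissue, *Htr5b*, *Crh* and *C1ql1* of the olivary neuron markers were present in every library, and the 5 tested markers of Purkinje and granule cells were at or below 5.74 FPKM in all of them. Choroid plexus epithelium markers set libraries apart: *Ttr*, a secreted thyroxine carrier of that epithelium, ranged from 16.7 FPKM in KI replicate 3 to 4309 FPKM in WT replicate 1, and the mean log2 level of the 15 markers was 4.06 below the WT mean in KI replicate 3. None of these 15 was called, and 0 had an unadjusted p under 0.05 (limma).

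**Figure D1:**
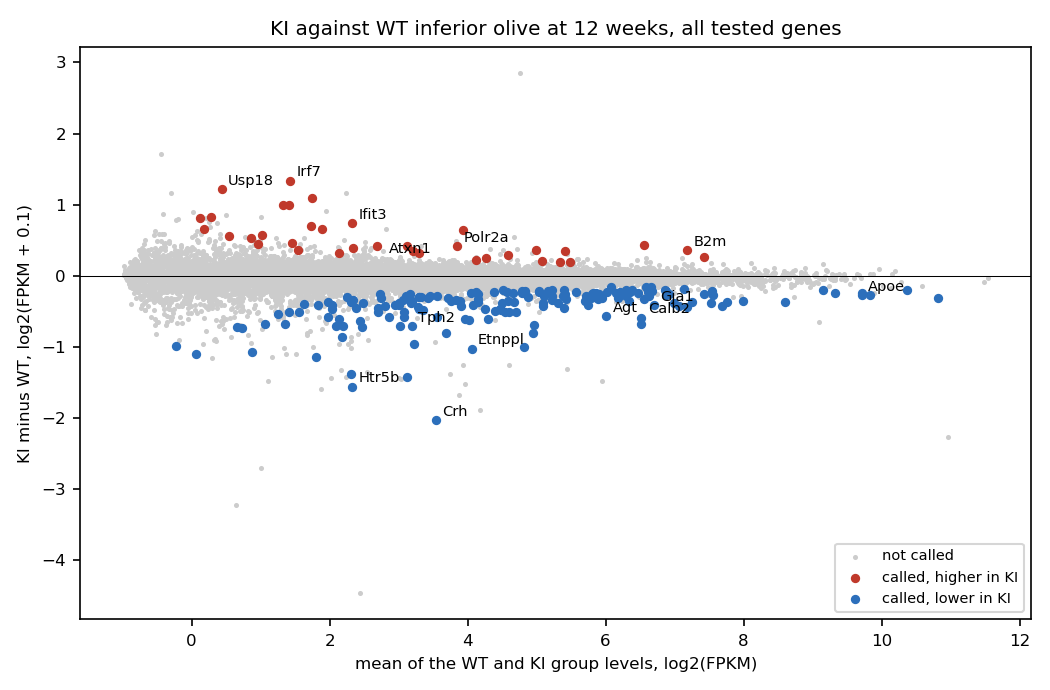
Each point is 1 of 13832 genes, with the mean of its WT and KI levels on the horizontal axis, log2(FPKM), and the KI minus WT difference of log2(FPKM + 0.1) on the vertical axis. Filled red points are the 36 genes called higher in KI mice and filled blue points the 175 called lower, which reach down to -2.03 for *Crh*.

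Down-regulation was the more frequent direction. The threshold for a call was an adjusted p under 0.05 (limma on log2(FPKM + 0.1), Benjamini-Hochberg over all 13832 genes, two-sided), which held for 211 genes or 1.53% of those tested. Of these, 36 rose in KI mice (0.26%) and 175 fell (1.27%). Most changes were small. The median log2 fold change was 0.43 among the genes that rose and -0.36 among those that fell, and 3 genes rose and 9 fell by more than 1 on the log2 scale. In all 211 genes no KI library overlapped the range of the WT libraries, while over all genes tested this was so for 8.39% in the upward and 10.9% in the downward direction. The p-values rest on 3 mice a group. The calls depended on single WT and KI libraries: without WT replicate 2 there were 40 calls, without WT replicate 3 there were 43, without KI replicate 1 there were 93 and without KI replicate 2 there were 109. All 211 genes kept their direction whichever library was left out, which was fixed in advance because their groups did not overlap. Of the 211, 33 were called in each of those 6 fits, among them *Crh*, *Htr5b*, *Stac*, *Etnppl*, *Tph2*, *Calb2*, *Agt*, *Gja1*, *Irf7* and *Ifit3*. Another 40 were called in none of the 6 fits, among them *Apoe*, *Gria1*, *Th*, *Cyp51*, *Ntrk2*, *Etv4*, *Cox7a1*, *Gbp7* and *Xaf1*.

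Of the genes that mark olivary neurons, 5 of 10 fell and none rose, against the 1.27% of all genes that fell. This list and those below were drawn up with earlier results of these data known, so their shares can be in part fixed by the choice. *Crh*, which encodes corticotropin-releasing hormone, a peptide of climbing fibers, had 20.6, 18.5 and 17.2 FPKM in WT libraries and 4.52, 3.87 and 5.21 FPKM in KI libraries. No KI library came near the lowest WT library, and *Crh* had the largest log2 fold change of all called genes, -2.03 ± 0.108 (SE, adjusted p = 0.000759, limma). *Htr5b*, a serotonin receptor restricted to few brain regions, fell by 67.2%. *C1ql1*, a secreted protein by which climbing fibers organize their synapses on Purkinje cells, was at 42.6, 36.0 and 39.2 FPKM in WT mice and at 22.5, 19.3 and 26.0 FPKM in KI mice (log2 fold change -0.80 ± 0.104, SE, adjusted p = 0.0121, limma, locus on chromosome 11, 102939264 to 102946461). *Pou4f1*, a transcription factor of olivary and sensory neurons, went from 7.08, 6.50 and 6.27 to 4.45, 3.58 and 4.63 FPKM (log2 fold change -0.64 ± 0.0994, SE, adjusted p = 0.0212), and the calcium buffer *Calb1* also fell. The other 5 did not pass the test. *Slc17a6*, the vesicular glutamate transporter of these neurons, had 76.6, 80.2 and 77.7 FPKM in WT and 79.7, 72.5 and 80.3 FPKM in KI libraries, with overlapping groups. *Foxp2* and *Igf1* overlapped as well. *Gjd2*, the neuronal gap junction protein, differed by -0.23 ± 0.0505 on the log2 scale (SE, adjusted p = 0.0846), and *Etv1*, a transcription factor and the only one of the 10 with all KI libraries above all WT libraries, of 0.30 ± 0.0627 (adjusted p = 0.0666). In RNA of whole tissue, fewer cells of a type and less RNA per cell cannot be told apart.

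Beside these markers, the largest decreases included synaptic and receptor genes. *Stac*, an adaptor protein that binds voltage-gated calcium channels, went from 5.05, 5.08 and 4.48 to 2.24, 1.99 and 2.199 FPKM (-1.15 ± 0.0801, SE, adjusted p = 0.00134, chromosome 9, 111557970 to 111690585). Replicates of *Stac* differed by little within either genotype. *Cnih3*, an auxiliary subunit of AMPA glutamate receptors, fell by 46.0%, to 3.26, 3.08 and 3.20 FPKM in the KI libraries. *Gpr64*, an adhesion receptor, fell by 41.5%. Others among the 18 largest decreases by this measure were neuropeptides and a serotonergic gene, described next, *Etnppl* and *Kcnip2*, described with their groups, and *A630076J17Rik*, *2810047C21Rik1* and *Gm10684*, 3 sparsely annotated loci at 2.18 FPKM or less in every library.

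**Figure D2:**
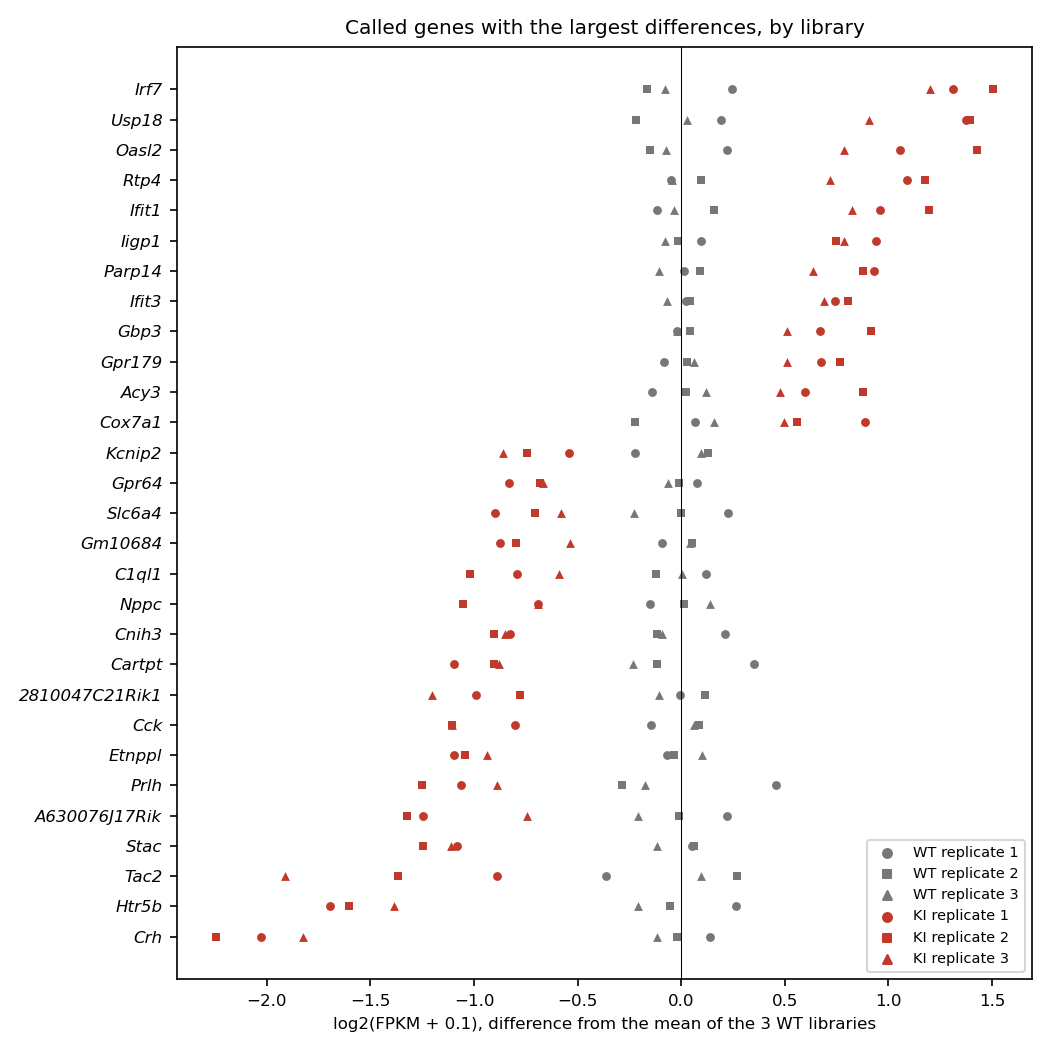
The 12 largest increases and 17 of the 18 largest decreases among called genes that averaged 1 FPKM or more in the higher group, by library. The horizontal axis is log2(FPKM + 0.1) as a difference from the mean of the 3 WT libraries, grey symbols are WT and red symbols KI libraries, and in every gene the red symbols lie to 1 side of all grey ones.

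Several neuropeptide transcripts fell in KI mice. Of 32 tested, 7 fell and none rose, where 1.27% of all genes fell. The other 25 did not pass, 28 had a lower mean in KI mice, and the median log2 fold change was -0.17, against -0.01 over all genes tested. The 7 that fell were *Crh*, *Trh*, *Cck*, *Sst*, *Nppc*, *Cartpt* and *Tac2*. The list includes *Crh*, *Cck*, *Gal* and *Nppc*, which the study reports as lower in this tissue. Its share of decreases is therefore in part fixed by the choice. *Trh*, thyrotropin-releasing hormone, had 21.2, 19.7 and 18.1 FPKM in WT and 12.5, 13.5 and 12.3 FPKM in KI mice (log2 fold change -0.62 ± 0.0650, SE, adjusted p = 0.00549, limma, chromosome 6, 92242061 to 92244650). *Sst*, somatostatin, an inhibitory peptide, was among the most abundant of them, with 163.6, 149.1 and 145.6 FPKM in WT and 115.6, 113.8 and 112.2 FPKM in KI libraries (-0.42 ± 0.0462, SE, adjusted p = 0.00639). *Trh* and *Sst* stayed called whichever library was left out. *Cartpt*, a satiety peptide, went from 15.6, 11.3 and 10.4 to 5.66, 6.50 and 6.61 FPKM. *Tac2*, which encodes neurokinin B, had the largest SE of the 7, going from 5.48, 8.55 and 7.57 to 3.78, 2.68 and 1.81 FPKM (-1.39 ± 0.252, SE, adjusted p = 0.0414). *Prlh*, prolactin-releasing hormone, which was in no list, fell by 55.4% to 1.13, 0.978 and 1.29 FPKM. Leaving out WT replicate 2 left 4 neuropeptides called. The receptors for these peptides gave 0 calls among 35 tested (limma), with 0 higher and 5 lower at an unadjusted p under 0.05. *Ntsr2*, a neurotensin receptor expressed in astrocytes and the most abundant of them, came nearest, with 92.2, 102.2 and 100.8 FPKM in WT and 79.4, 85.6 and 75.1 FPKM in KI libraries (adjusted p = 0.0515).

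Genes of serotonergic neurons were lower in KI mice. These cells lie in the raphe nuclei of the midline, next to the olive, and serve as a check on what the dissection contained. All 6 markers were lower in every KI than in every WT library, 3 fell, and the median log2 fold change was -0.46. Over all genes tested, 10.9% were lower in every KI than in every WT library and 1.27% fell. *Tph2*, the enzyme that starts serotonin synthesis in neurons, had 12.2, 11.7 and 10.3 FPKM in WT and 6.78, 6.69 and 7.25 FPKM in KI libraries (-0.71 ± 0.0689, SE, adjusted p = 0.00313, limma, chromosome 10, 115078641 to 115185022). *Slc6a4*, the serotonin transporter, went from 8.10, 6.91 and 5.89 to 3.66, 4.20 and 4.59 FPKM (-0.73 ± 0.123, SE, adjusted p = 0.0322), and *Slc18a2*, the vesicular monoamine transporter, from 12.6, 12.0 and 11.3 to 8.54, 7.95 and 9.16 FPKM (-0.48 ± 0.0654, SE, adjusted p = 0.0138). *Fev*, *Ddc* and *Gata3* did not pass. *Tph2* was called whichever library was left out, while without WT replicate 2 it was the only one of the group. Of the catecholamine genes, *Th*, tyrosine hydroxylase, fell by 25.3% (adjusted p = 0.0496) and *Dbh*, which makes noradrenaline, had 4.76, 3.44 and 3.15 FPKM in WT and 2.55, 2.71 and 2.57 FPKM in KI mice without passing (adjusted p = 0.163). The 3 tested markers of cholinergic motor neurons overlapped between the groups, with 0 calls and 0 at an unadjusted p under 0.05. The part that the extent of the dissection has in the decreases of neuronal genes was not tested. Relative to the WT mean, the mean log2 level of the olivary markers was -0.54, -0.69 and -0.45 in the KI libraries and that of the serotonergic markers -0.51, -0.53 and -0.35, with KI replicate 3 highest in both.

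Changes in receptors and channels concerned few members, where 1.27% of all genes fell. Among 33 receptors for monoamines and acetylcholine 3 fell: *Htr5b*, *Hrh3*, the histamine receptor that sits on nerve terminals, with 10.5, 9.50 and 10.3 FPKM in WT and 5.85, 6.33 and 6.23 FPKM in KI libraries (-0.71 ± 0.0568, SE, adjusted p = 0.00211, limma), and the adrenergic receptor *Adra1d* (-23.1%). Of 26 glutamate receptor genes *Grm4*, a presynaptic metabotropic receptor, and *Gria1*, an AMPA receptor subunit, fell by 23.3% and 14.2%. GABA and glycine receptors gave 0 calls among 22, with 2 higher and 3 lower at an unadjusted p under 0.05. Potassium channel genes contributed 5 decreases among 69 tested, in *Kcnip2*, a partner of A-type channels, *Kcng1*, *Kcnk13*, *Kcnc1*, a channel of fast-spiking neurons, and *Kcnj10*, the inward rectifier of glia. *Kcnc1* had 80.8, 81.1 and 79.5 FPKM in WT and 63.8, 62.1 and 67.5 FPKM in KI mice, a decrease larger than the spread in either group (-0.32 ± 0.0381, SE, adjusted p = 0.00892). *Cacna1g*, the T-type calcium channel, was the only 1 of 22 calcium channel genes to change, from 10.9, 11.2 and 10.6 to 8.48, 8.65 and 9.28 FPKM (-0.30 ± 0.0507, SE, adjusted p = 0.0309). *Scn4b*, a sodium channel beta subunit, was the only 1 of 14 sodium and HCN channel genes, and fell by 16.9%.

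Calcium-binding proteins fell in 5 of 32 tested genes, *Calb2*, *Pcp4*, *Necab2*, *Calb1* and *Hpcal1*, and none rose, where 1.27% of all genes fell. *Calb2*, calretinin, had 115.4, 106.5 and 108.8 FPKM in WT and 73.0, 72.1 and 74.6 FPKM in KI libraries (-0.59 ± 0.0386, SE, adjusted p = 0.00102, limma, chromosome 8, 110142528 to 110168684). *Pcp4*, a modulator of calmodulin, went from 228.4, 234.5 and 245.4 to 178.4, 172.1 and 175.3 FPKM (-0.43 ± 0.0366, SE, adjusted p = 0.00237). In both genes the gap between the groups was wider than the range within either. Synaptic vesicle genes were not called: 0 of 41 were called, with 5 higher and 6 lower at an unadjusted p under 0.05, and *Snap25*, part of the fusion machinery, had a log2 fold change of -0.15 ± 0.0409 (adjusted p = 0.15). Neurofilament and axon growth genes gave 0 calls of 14 (1 higher and 4 lower at an unadjusted p under 0.05), with *Nefl*, the light neurofilament, at -0.23 ± 0.0499 (adjusted p = 0.07), and perineuronal net genes 0 of 11 (1 and 2).

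Many astrocyte genes were lower in KI mice. Of 12 tested, 7 fell and none rose, where 1.27% of all genes fell, 10 had a lower mean in KI mice and the median log2 fold change was -0.30. *Agt*, angiotensinogen, which astrocytes secrete in the brain, had 79.3, 77.2 and 74.5 FPKM in WT and 51.7, 54.0 and 49.9 FPKM in KI libraries (-0.57 ± 0.0410, SE, adjusted p = 0.0014, limma, chromosome 8, 124556587 to 124569707). *Slc6a11*, a GABA transporter, went from 168.9, 168.9 and 161.1 to 117.8, 125.7 and 125.4 FPKM (-0.44 ± 0.0385, SE, adjusted p = 0.00239). *Gja1*, connexin 43, the main astrocyte gap junction protein, had 114.3, 123.5 and 120.3 FPKM in WT and 90.5, 86.4 and 91.4 FPKM in KI mice (-0.42 ± 0.0401, SE, adjusted p = 0.00313, chromosome 10, 56377300 to 56390419). In all 3 genes the gap between the groups was wider than the range within either. *Kcnj10*, *Slc1a2*, the main glutamate transporter, *Glul*, glutamine synthetase, and the water channel *Aqp4* fell by smaller amounts, and so did the entry that joins *Aldoc* with *Pigs* (adjusted p = 0.0374). Not all members were lower. *Slc1a3*, the other glutamate transporter, had 50.2, 51.2 and 50.2 FPKM in WT and 51.6, 52.5 and 51.2 FPKM in KI libraries, *S100b* had a higher mean in KI mice (0.11 ± 0.0450, adjusted p = 0.355), and *Aldh1l1* overlapped between the groups. Outside the list, *Etnppl*, a phospholipid enzyme enriched in astrocytes, had the largest decrease of this kind, from 21.4, 21.9 and 24.1 to 10.4, 10.8 and 11.7 FPKM (-1.03 ± 0.0603, SE, adjusted p = 0.000863, chromosome 3, 130617448 to 130637751). *Itih3*, *Chil1*, a chitinase-like protein, and *Ttyh1* also fell. Reactive astrocyte genes gave 0 calls among 14 (1 higher and 3 lower at an unadjusted p under 0.05). *Gfap*, the intermediate filament of astrocytes, had 183.4, 219 and 192.6 FPKM in WT and 173.4, 167.1 and 153.8 FPKM in KI mice (-0.27 ± 0.0702, adjusted p = 0.14), and *Vim* overlapped.

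Oligodendrocyte genes fell in 3 of 15 cases, by less, where 1.27% of all genes fell. Of the 15, 14 had a lower mean in KI mice and 1 a higher one, where 47.3% of all genes had a higher mean. In 10 of the 15 all KI libraries lay below all WT libraries, against 10.9% of all genes, and the median log2 fold change was -0.12. *Cldn11*, a tight junction protein of myelin, went from 196.2, 214.6 and 212.6 to 157.4, 159.4 and 161.4 FPKM (-0.38 ± 0.0407, SE, adjusted p = 0.00572, limma) and *Mal*, a myelin proteolipid, fell by 16.4%. *Mag*, *Myrf* and *Sox10* overlapped between the groups. Of 7 markers of oligodendrocyte precursors *Bcas1*, found in cells beginning to myelinate, rose by 20.5% (adjusted p = 0.0458). Endothelial cells gave 0 calls among 8 and pericytes 0 among 7, with 0 higher and 1 lower, and 2 higher and 0 lower, at an unadjusted p under 0.05. *Hbb-bt*, a hemoglobin chain of red blood cells, fell by 23.2%, and the entry that joins *Hba-a1* with *Hba-a2* had a log2 fold change of -0.36 ± 0.103 (adjusted p = 0.167).

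**Figure D3:**
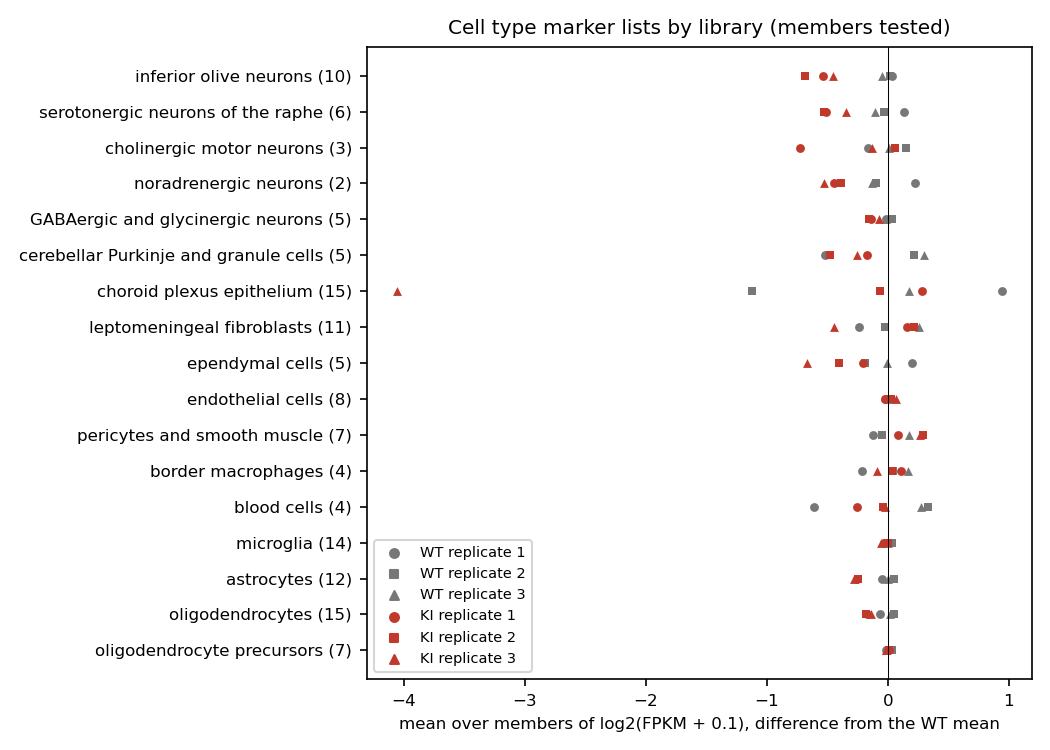
Mean log2(FPKM + 0.1) over the tested members of each cell type marker list (number in brackets), by library, as a difference from the mean of the 3 WT libraries, with WT libraries in grey and KI libraries in red. KI libraries lay below all WT libraries for markers of olivary, serotonergic, noradrenergic and GABAergic or glycinergic neurons, ependymal cells, astrocytes and oligodendrocytes, genotypes overlapped for microglia, and choroid plexus markers spread from -4.06 in KI replicate 3 to 0.942 in WT replicate 1.

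Genes of the interferon response were the main group to rise. Over the lists for interferon sensing, antiviral effectors, interferon-inducible GTPases and MHC class I presentation, 85 genes were tested. Of these 74 had a higher mean in KI mice, 16 rose and 0 fell, where 47.3% of all genes had a higher mean and 0.26% rose. The study had reported raised interferon-stimulated genes in this tissue before the lists were drawn up, so these shares are no independent test. Among the sensors and signal transducers 5 of 22 rose. *Ifih1*, which senses long double-stranded RNA, had 1.57, 1.41 and 1.43 FPKM in WT and 2.1, 2.16 and 2.22 FPKM in KI libraries (0.53 ± 0.0859, SE, adjusted p = 0.0265, limma, chromosome 2, 62593238 to 62646577). *Trim25*, a ubiquitin ligase of the related RIG-I pathway, went from 2.26, 2.29 and 2.34 to 3.14, 3.35 and 3.11 FPKM (0.46 ± 0.0683, SE, adjusted p = 0.0188). The entry that joins *Irf9* with *Rnf31* rose as well (0.35 ± 0.0658, adjusted p = 0.0475). *Irf7*, the regulator that amplifies interferon production, and *Usp18*, the feedback inhibitor of the receptor, had the 2 largest increases of all genes called. By contrast the receptor subunits *Ifnar1* and *Ifnar2*, the kinases *Jak1* and *Tyk2*, the adaptor *Mavs* and the factor *Irf3* overlapped between the groups, and the list's median was 0.05. The 10 interferon ligand genes listed were all below the filter.

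Of the antiviral effectors 7 of 35 rose, 33 had a higher mean in KI mice and in 25 all KI libraries lay above all WT libraries (median 0.41). The shares over all genes tested were 0.26%, 47.3% and 8.39%, in the same order. The effectors that rose were *Ifit1*, *Ifit3*, *Oasl2*, *Rtp4*, *Parp14*, *Xaf1* and *Eif2ak2*. *Rtp4*, a chaperone-like interferon-induced protein, had 1.58, 1.76 and 1.58 FPKM in WT and 3.60, 3.82 and 2.75 FPKM in KI libraries (0.99 ± 0.125, SE, adjusted p = 0.00991, limma). *Parp14*, an ADP-ribosyltransferase, went from 0.767, 0.815 and 0.697 to 1.54, 1.48 and 1.23 FPKM (0.81 ± 0.127, SE, adjusted p = 0.0221). *Eif2ak2*, the kinase PKR that halts translation on binding double-stranded RNA, had 5.49, 5.35 and 5.63 FPKM in WT and 7.40, 8.16 and 6.60 FPKM in KI mice (0.42 ± 0.0774, SE, adjusted p = 0.0458). Among the GTPases, which act against pathogens within cells, 3 of 11 rose, all 11 had a higher mean in KI mice and 10 had non-overlapping groups (median 0.45). *Gbp3* went from 2.47, 2.58 and 2.47 to 4.04, 4.82 and 3.61 FPKM (0.70 ± 0.103, SE, adjusted p = 0.0179), *Gbp7* and *Iigp1* were the others called, and *Irgm1*, *Irgm2* and *Igtp* lay between adjusted p = 0.057 and 0.0652. For MHC class I, 1 of 17 rose, the light chain *B2m*, while 15 had a higher mean and 13 had non-overlapping groups (median 0.24). The joined entry of the heavy chains *H2-D1* and *H2-L* also rose, from 39.2, 36.2 and 37.6 to 45.2, 51.1 and 47.2 FPKM (0.34 ± 0.0522, adjusted p = 0.0202). Because these families hold near-identical copies, the authors' assignment of fragments among *Ifit*, *Oas*, *Gbp* and H2 genes is uncertain.

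Within the KI group, many interferon genes had the same order. KI replicate 3 had the lowest KI value in 61 of the 85 genes and KI replicate 2 the highest in 54. *Isg15*, a ubiquitin-like modifier, is an example, with 4.87, 6.04 and 4.20 FPKM against 1.91, 3.03 and 3.06 FPKM in WT mice. The matching shares over all genes tested were not computed, so whether this order is particular to interferon genes is unknown. KI replicate 3 was also the library with the fewest choroid plexus transcripts. Without it the 4 lists together had 17 calls in place of 16, and with the level of the choroid plexus markers as a covariate they had 27. The count of calls was 10 without WT replicate 1, 3 without WT replicate 2, 2 without WT replicate 3, 5 without KI replicate 1 and 8 without KI replicate 2. *Irf7* and *Ifit3* were called in every one of these 7 fits.

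Short stretches of promoters are shown because they hold letters of the interferon-stimulated response element, to which Stat2 and Irf9 bind as part of a complex. RefSeq promoter windows (GRCm38.p6, the assembly of mm10, from 250 bases before to 50 after an annotated start) were at hand for 20 of the 36 genes that rose, and *Irf7*, *Usp18* and *Oasl2* were not among them. The motif searched was GAAANNGAAA on both strands. It was found in 7 of those 20 genes (35%), in 3 of 118 that fell (2.54%), in 3.52% of the 10024 tested genes with a window and in 3.99% of all 27025 genes of the table. The 7 were *B2m*, *Eif2ak2*, *Gbp3*, *Gbp7*, *Ifih1*, *Ifit1* and *Ifit3*, all from the interferon lists. The stretches below lie before the start, read 5′ to 3′ along the gene, with the motif or its reverse complement in capitals, and all 4 are on the plus strand at chr19:34583343-34583446 (*Ifit3*), chr19:34640755-34640843 (*Ifit1*), chr3:142559969-142560043 (*Gbp3*) and chr2:122147518-122147587 (*B2m*).
Ifit3: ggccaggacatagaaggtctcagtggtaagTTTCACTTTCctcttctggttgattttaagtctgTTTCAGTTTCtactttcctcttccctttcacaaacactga
Ifit1: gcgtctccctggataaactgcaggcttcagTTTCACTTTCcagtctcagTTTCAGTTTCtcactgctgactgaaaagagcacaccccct
Gbp3: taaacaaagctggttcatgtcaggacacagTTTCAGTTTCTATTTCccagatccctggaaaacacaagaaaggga
B2m: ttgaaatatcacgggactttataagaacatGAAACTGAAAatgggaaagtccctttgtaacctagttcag
*Ifit3*, *Ifit1* and *Gbp3* carry the motif 2 times, in *Gbp3* with overlap, and its first base lies 156, 104 and 45 bases before the start. A match of letters is no measure of binding.

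The same windows were searched for the cAMP response element TGACGTCA, which the factor Creb binds in genes that follow neuronal activity, because neuropeptide genes are known for it. It was present in 2 of the 6 neuropeptide genes that fell and have a window (33.3%), in 4.24% of all genes that fell and in 3.54% of tested genes. The 2 genes were *Sst* and *Cartpt*, both on the minus strand, at chr16:23890855-23890922 (*Sst*) and chr13:99900758-99900825 (*Cartpt*), with the element in capitals. *Sst* also holds the interferon motif letters elsewhere in its window, without overlap.
Sst: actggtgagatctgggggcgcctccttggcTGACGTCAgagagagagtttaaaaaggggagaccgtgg
Cartpt: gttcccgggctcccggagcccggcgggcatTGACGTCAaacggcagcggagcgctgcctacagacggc
The choice of this motif followed the neuropeptide results. The Cic octamers TGAATGAA and TGAATGGA were found in 1 of 20 genes that rose (5%), 3 of 118 that fell (2.54%) and 1.92% of tested genes. Of 9 Cic target genes with a window *Spred3* held one.

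Microglial genes were measured beside the interferon genes. None of 14 microglia markers was called (limma), with 0 higher and 1 lower at an unadjusted p under 0.05 and a median of -0.01. *Csf1r*, the receptor microglia need to survive, had 14.8, 15.9 and 15.8 FPKM in WT and 15.9, 16.6 and 15.4 FPKM in KI libraries, with overlapping groups. Genes of disease-associated microglia gave 1 decrease among 16, in *Apoe*, a lipid carrier that astrocytes also make, from 938, 876.4 and 938.9 to 783.7, 773.1 and 729 FPKM (-0.27 ± 0.0447, SE, adjusted p = 0.0305). Complement genes had 0 calls among 8 (0 higher and 1 lower at an unadjusted p under 0.05), and *C1qa* had 26.2, 29.2 and 28.3 FPKM in WT and 28.9, 27.9 and 25.8 FPKM in KI mice.

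**Figure D4:**
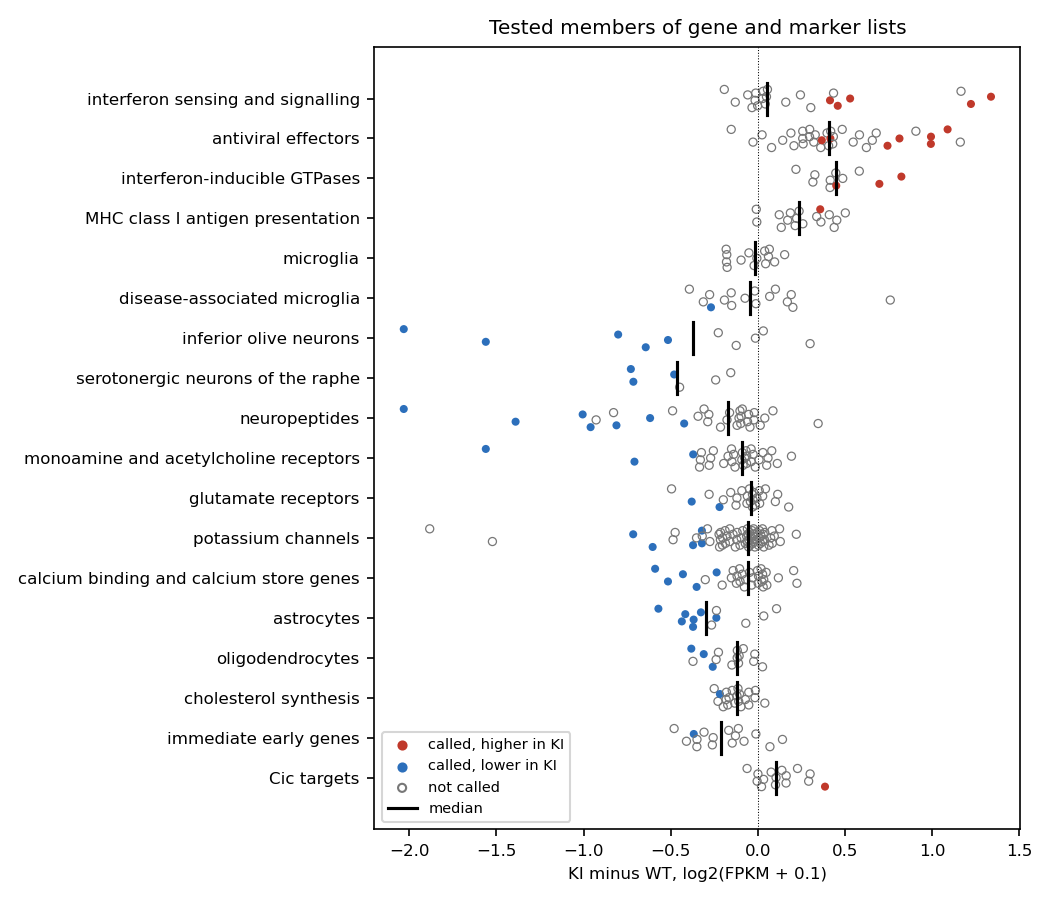
Each symbol is 1 tested member of a gene or marker list, placed by its KI minus WT difference of log2(FPKM + 0.1), filled red or blue where it was called higher or lower in KI mice and open where it was not called, with the median as a black bar. Filled symbols are on the right for the 4 interferon lists and on the left for the lists of neuronal, astrocyte and oligodendrocyte genes shown, and microglia markers are open and near 0.

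Of the 36 genes that rose, 20 were outside the 4 interferon lists. *Polr2a*, the largest subunit of RNA polymerase II, was outside every list and was chosen after its values were seen. It had 12.8, 12.3 and 11.7 FPKM in WT and 15.7, 17.4 and 16.3 FPKM in KI libraries (0.42 ± 0.0543, SE, adjusted p = 0.0117, limma). *Etv4*, a transcription factor repressed by Cic, was the only one of 15 Cic targets to rise, from 4.06, 4.68 and 4.40 to 5.69, 6.05 and 5.50 FPKM (0.39 ± 0.0696, SE, adjusted p = 0.0405, limma, chromosome 11, 101769742 to 101785505). A higher mean in KI mice was found for 13 of these 15, against 47.3% of all genes, and the median of the 15 was 0.11. *Etv4* was not called in any fit with a library left out. *Atxn1* and its protein partners gave 0 calls among 10 (1 higher and 0 lower at an unadjusted p under 0.05). *Cox7a1*, a cytochrome c oxidase subunit of muscle and vessels, rose by 57.1% (adjusted p = 0.0481) and was the only one of 74 respiratory chain genes to change. *Acy3* and *Gpr179*, an orphan receptor, rose by 59.6% and 64.0%.

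Small decreases were found in genes of other pathways. As a background, 47.3% of all genes tested had a higher mean in KI mice and 1.27% fell. A lower level at an unadjusted p under 0.05 (limma) was found in 1187 of the 13832. Of 21 cholesterol synthesis genes 20 had a lower mean in KI mice, 12 were lower at an unadjusted p under 0.05 and 1, *Cyp51*, fell, from 33.9, 36.6 and 34.7 to 29.7, 29.8 and 31.0 FPKM (-0.22 ± 0.0405, SE, adjusted p = 0.0463, limma). Of 16 immediate early genes, which respond to neuronal activity, 14 had a lower mean and *Dusp1* fell by 22.6%. Among 17 circadian clock genes *Tef* fell by 16.3%, as did the entry that joins *Car11* with *Dbp* (adjusted p = 0.0179). *Ntrk2*, the receptor of brain-derived neurotrophic factor, fell by 12.7% and was the only one of 11 neurotrophin genes. Stress response genes gave 0 calls among 17 (0 higher and 4 lower at an unadjusted p under 0.05) and collagens 0 among 30 (0 and 1).

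Whether the KI effect differs with age was asked by an interaction over the 12 libraries of 5 and 12 weeks. No gene of 13241 was called (0%), 672 had an unadjusted p under 0.05, and limma without the mean-variance trend gave 0 calls as well. The 5-week libraries by themselves gave 2 calls among 13654 genes. The absence of a called interaction therefore does not show that the effects at the 2 ages are alike. For genes called at 12 weeks, values at 5 weeks were mostly in the same direction. Of 169 genes that fell at 12 weeks and were tested at both ages, 150 had a lower mean at 5 weeks too, against 52.7% of all genes, and of 36 that rose 30 had a higher mean, against 47.3%. The median log2 fold change was -0.36 at 12 and -0.16 at 5 weeks for the first group and 0.43 and 0.21 for the second. Since they were chosen for their values at 12 weeks, larger effects at that age are in part fixed by the choice. Choroid plexus markers, none of them called at 12 weeks, went the other way. Over the 9 tested at both ages the median log2 fold change was -1.38 at 12 weeks and 2.42 at 5 weeks. *Stac* had 5.99, 4.86 and 5.67 FPKM in WT and 2.95, 2.77 and 2.55 FPKM in KI mice at 5 weeks (-0.97 ± 0.109, SE, difference between ages -0.18 ± 0.134). The lowest interaction p-values among genes called at 12 weeks were those of *Chil1*, *Irf7*, *Itih3*, *Etnppl* and *Gnas*, all with an adjusted p of 0.474. *Etnppl* had 19.2, 22.1 and 16.5 FPKM in WT and 17.3, 16.0 and 13.8 FPKM in KI libraries at 5 weeks, with overlapping groups (-0.29 ± 0.125, SE). The value of *Gja1* at 5 weeks was -0.08 ± 0.0707 and that of *Agt* -0.08 ± 0.133, and neither difference between ages passed. The value of *Gnas* is uncertain, since its symbol has more than 1 entry at the same locus at 5 weeks and the one of higher mean was used, with 645 to 1755 FPKM in WT and 3060 to 15810 FPKM in KI libraries. In the other entry above the filter the groups overlapped, with 1476, 1222 and 1419 FPKM in WT and 1414, 1320 and 1280 FPKM in KI libraries.

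The promoter of the Tg mice is active in Purkinje cells and not in the olive, and this comparison asks which KI effects differ from those in the Tg olive. Strain and model cannot be told apart in it. The Tg olive libraries by themselves gave 0 calls among 13726 genes, so no Tg effect was detected by this test. The genotype effect differed in 28 of 13174 genes (0.213%), and in 27 of them it was lower in KI mice. Of the 211 genes called in KI mice 201 were tested, and 26 differed. *Crh* and *Irf7* had the largest differences. *Crh* had 19.4, 18.9 and 19.9 FPKM in WT and 18.6, 14.0 and 16.3 FPKM in Tg mice, and the difference between the KI and Tg effects was -1.77 ± 0.157 (SE, adjusted p = 0.000745, limma). *Calb2* had 95.5, 102.4 and 100 FPKM in WT and 102.3, 97.8 and 103.2 FPKM in Tg mice, with overlapping groups, and a difference of -0.61 ± 0.0559 (adjusted p = 0.000745). *Itih3*, *Ttyh1*, *Stac* and *Htr5b* also differed. Of 11 astrocyte markers tested in both, *Agt*, *Gja1*, *Glul* and *Slc1a2* differed, and the median was -0.27 in KI and 0.05 in Tg mice. *Irf7*, the only one with a higher effect in KI mice, had 0.773, 1.06 and 0.786 FPKM in WT and 0.801, 0.838 and 0.846 FPKM in Tg mice, a difference of 1.39 ± 0.195 (adjusted p = 0.0121). For the 32 antiviral effectors tested in both the median was 0.38 in KI and 0.03 in Tg mice, and 0 had a difference that passed, where limma gave *Ifit3* 0.74 ± 0.195 (adjusted p = 0.235). The serotonergic genes had higher means in Tg mice in 6 of 6 cases, with overlapping libraries for *Tph2*, at 4.78, 11.3 and 10.5 FPKM in WT and 9.74, 11.4 and 11.6 FPKM in Tg mice, and none differed (difference for *Tph2* -1.10 ± 0.333, adjusted p = 0.381). Of 170 genes that fell in KI mice 102 had a lower mean in Tg mice, and of 31 that rose 18 had a higher one, against 51.6% and 48.4% of all genes. Since genes called in KI mice were chosen for their values there, larger effects in KI than in Tg mice are in part fixed by the choice. The count of 28 was 13 without WT replicate 2 of the KI table, 11 without WT replicate 3 and 18 without KI replicate 2.

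**Figure D5:**
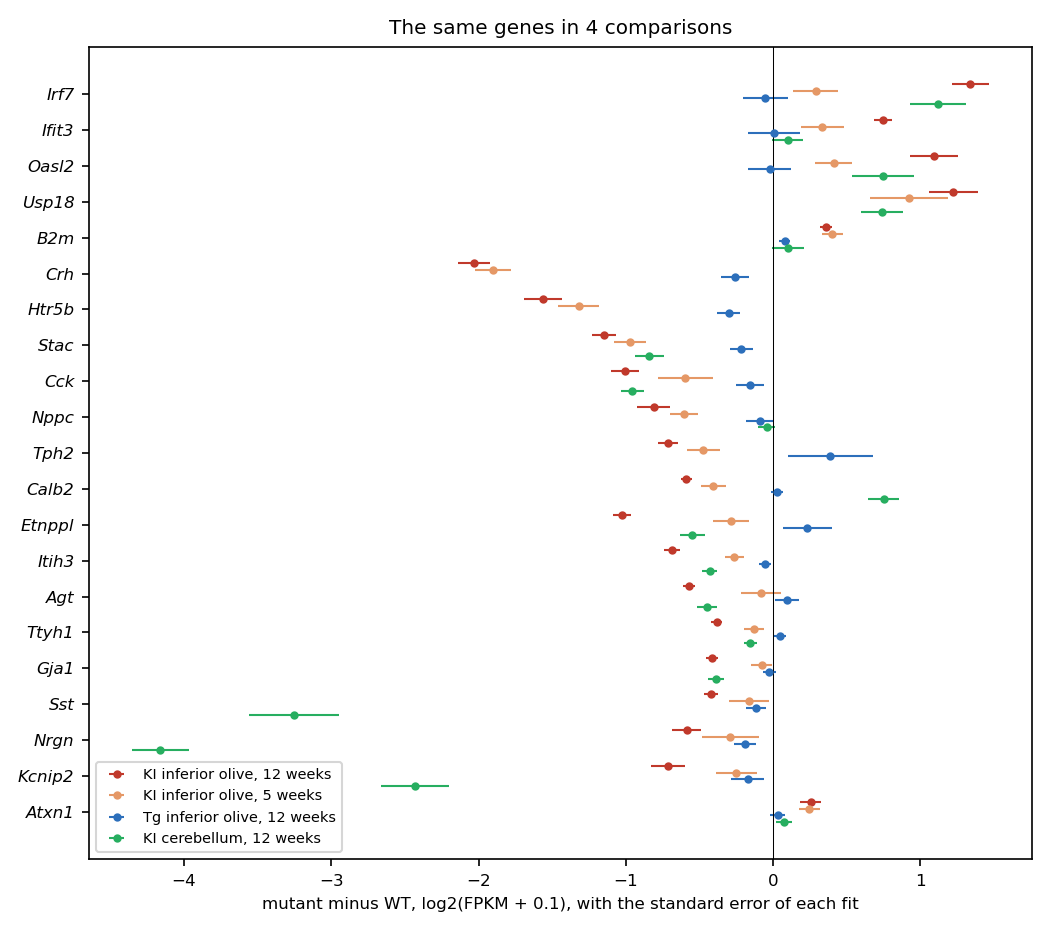
Log2 fold change of mutant over WT, with the SE of each fit as a bar, for 21 genes in the KI inferior olive at 12 weeks (red) and 5 weeks (orange), the Tg inferior olive at 12 weeks (blue) and the KI cerebellum at 12 weeks (green), on the log2(FPKM + 0.1) scale. Blue points lie nearer to 0 than red ones in each gene that has both, red and orange lie close together for *Crh*, and for *Nrgn* and *Sst* the green points lie at -4.16 and -3.25. All genes but *Atxn1* were called in the KI olive at 12 weeks, so larger red values are in part fixed by the choice. A gene not tested in a table has no point there.

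Whether olive and cerebellum libraries share animals is not stated in the labels. In the KI cerebellum at 12 weeks the genotype effect differed from that in the olive in 254 of 12644 genes (2.01%), with 168 higher and 86 lower in the olive. Of 189 genes called in the olive and tested in both tissues 22 differed. The largest differences among these 22 were those of *Nrgn*, *Sst*, *Necab2* and *Kcnip2*, which had lower levels in all KI than in all WT libraries of both tissues and a larger decrease in the cerebellum. WT cerebellum libraries differed among themselves, with a mean of 4.73 FPKM and a standard deviation of 2.93 for *Necab2*. The part that the extent of the cerebellum dissection has in the decreases of *Nrgn*, *Sst*, *Necab2* and *Kcnip2* was not tested. *Nrgn*, neurogranin, which is abundant in forebrain neurons, had 61.3, 40.2 and 55.8 FPKM in WT and 3.58, 2.27 and 2.69 FPKM in KI cerebellum, and in the table of olive libraries it had 12.4, 14.9 and 15.1 FPKM in WT and 10.6, 8.59 and 8.92 FPKM in KI mice (difference between effects 3.57 ± 0.244, SE, adjusted p = 3.65e-05, limma). *Sst* had 48.8, 20.3 and 30.1 FPKM in WT and 3.25, 2.43 and 4.03 FPKM in KI cerebellum (difference 2.83 ± 0.348, SE, adjusted p = 0.00337). *Calb2*, which cerebellar granule cells express, went in opposite directions: it fell in the olive, and in the cerebellum had 208.6, 279.4 and 274.2 FPKM in WT and 439.2, 412.4 and 419.4 FPKM in KI mice (difference -1.34 ± 0.123, SE, adjusted p = 0.000413). For 12 astrocyte markers the median was -0.30 in the olive and -0.28 in the cerebellum, 11 had a lower mean in the KI cerebellum, and 0 had a difference between tissues that passed (limma). *Slc6a11* was farthest apart, with 77.3, 30.1 and 46.9 FPKM in WT and 17.0, 16.4 and 18.5 FPKM in KI cerebellum (-1.46 ± 0.288, SE, against -0.44 in the olive, difference 1.03 ± 0.328, adjusted p = 0.145). *Gja1* had 117.5, 106.8 and 113.3 FPKM in WT and 81.7, 84.5 and 91.7 FPKM in KI cerebellum (difference -0.03 ± 0.0714). *Irf7* had 1.32, 0.824 and 0.864 FPKM in WT and 2.35, 2.54 and 1.92 FPKM in KI cerebellum (difference 0.22 ± 0.244), while *Ifit3* overlapped there and its effect was greater in the olive (0.65 ± 0.127, adjusted p = 0.0262). *Nppc* too differed (-0.77 ± 0.134, adjusted p = 0.0155). Of 155 genes that fell in the olive 138 had a lower mean in the KI cerebellum, against 46.4% of all genes, and of 34 that rose 29 had a higher one, against 53.6%. The count of 254 lay between 87 and 126 without any 1 of the 6 olive libraries, the 87 without WT replicate 3.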

How the data were processed

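Poly-A RNA was sequenced as paired ends, and per the authors reads were aligned to mm10 with TopHat2 2.1.0, assembled and quantified with Cufflinks 2.2.1 and normalized with Cuffnorm. The authors deposited FPKM values per library, normalized within each table of 6 libraries, so levels of different tables are not on 1 scale and were not tested against each other. Their group averages and Cuffdiff fold changes and p-values were not used. Of 26393 entries, 10.6% had no symbol and were left out, the entry of highest mean stood for a symbol with several (155 symbols with more than 1 above the filter, 4 of them called), and entries that join several overlapping genes were kept under all their symbols.

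Here, log2(FPKM + 0.1) was fitted with limma 3.58.1 in R 4.3.3 (empirical Bayes with a mean-variance trend, Benjamini-Hochberg over all genes, adjusted p under 0.05) in genes that had a symbol and averaged 0.5 FPKM or more in each genotype. Fold changes are on the log2(FPKM + 0.1) scale, which understates those of low genes. Interactions were fitted over both tables, with the genotype effect taken within each table. The labels call the 3 libraries of a group biological replicates. Fragment counts are not given in FPKM tables, so no counting interval was computed. Strand was not used in the tests, and genes with antisense or overlapping partners are uncertain.

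Genes were named by rule: the 12 largest increases and 18 largest decreases among called genes that averaged 1 FPKM or more, up to 4 called members of each of 31 gene lists (or the 2 most abundant where none was called), 5 per interaction and cell type markers. Some further list members are named for their values, and some genes that met the rule are not reported here. Lists and members were chosen with earlier results of these data known. Start positions in the files were read as counted from 0 and are printed from 1. The scripts were tested on simulated data.

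Alternatives were other pseudocounts, filters, normalizations and variance models, a replicate block, a choroid plexus covariate, a GC correction and leaving out each library.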

Additional observations from a re-analysis of the deposited data

Results flagged for a closer look

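The KI effect in the inferior olive at 12 weeks differed from the Tg effect in the same tissue in 16 genes given here, by the interaction test of limma (adjusted p under 0.05 in each). The differences, KI minus Tg on the log2(FPKM + 0.1) scale, were -1.77 for *Crh*, -1.26 for *Htr5b*, -1.26 for *Etnppl*, -0.93 for *Stac*, -0.849 for *Cck*, -0.667 for *Agt*, -0.656 for *Hrh3*, -0.65 for *Cnih3*, -0.631 for *Itih3*, -0.615 for *Calb2*, -0.473 for *Cldn11*, -0.449 for *Pcp4*, -0.43 for *Ttyh1*, -0.39 for *Gja1* and -0.347 for *Scn4b*. *Irf7* was the one with a positive difference, of 1.39. Strain and model cannot be told apart in these values.

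The KI effect differed between the olive and the cerebellum at 12 weeks in 10 named genes by the same test. Olive minus cerebellum, the difference was -1.34 for *Calb2*, -0.767 for *Nppc*, -0.688 for *Hsd11b1*, 0.515 for *Paqr7*, 0.646 for *Ifit3*, 0.663 for *Th*, 1.71 for *Kcnip2*, 2.19 for *Necab2*, 2.83 for *Sst* and 3.57 for *Nrgn*. *Calb2* and *Hsd11b1* had effects of opposite sign in the 2 tissues.

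Among entries without a gene symbol, which the comparisons leave out, 583 passed the filter and 2 were called when they were included, 1 higher and 1 lower in KI mice.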

How the results depend on the processing

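The count of 211 calls fell to 97 without the mean-variance trend (23 higher and 74 lower in KI mice), and removal of a GC trend, chosen after seeing the data, left 111 genes lower. The difference from the Tg olive went from 28 to 14 genes without the trend. The cause was not tested. Leaving out 1 library gave 40 to 166 calls (3 to 28 higher, 37 to 143 lower), 0 to 1 for age, 11 to 34 for the difference from the Tg olive and 87 to 126 for that from the cerebellum, with fewer samples in each fit. All 211 genes kept their direction under every alternative in which they were tested. For the fits without 1 library this was fixed in advance, since the KI and WT libraries did not overlap in any of these genes. Other pseudocounts, filters, median centring, quantile normalization, array weights and the choroid plexus covariate kept the count within 1.5 times.

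With the replicate block there were 85 calls (12 higher, 73 lower), 12 for the Tg olive, 79 for the cerebellum and 0 for age. Deviations of same-numbered WT and KI libraries from their group means correlated at 0.0934, -0.237 and -0.219, and no library correlated best with its own number. With 3 libraries a group, these values cannot show whether replicate numbers pair the samples. FPKM values do not give fragment counts, so low genes have unknown counting error.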
